A study of Mus musculus with 48 samples.

Results

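Eomes encodes Tbr2, the T-box transcription factor that marks intermediate progenitors of the developing cortex, and Gadd45g encodes a small growth arrest and DNA damage protein that is switched on in progenitors committing to neurogenesis. Intermediate progenitors (IPC) are dividing daughters of the Pax6-positive neural stem cells (NSC) and give rise to cortical neurons. The data described here are the reporter activities of 4 DNA elements, of 11709 in the library, that carry the coordinates of 1 window beside Eomes and 1 window whose nearest protein-coding gene is Gadd45g. They were chosen by these coordinates. Each window is represented by an element of the E14 class (931 elements) and an element of the Shadow class (903 elements). What the class names stand for, and how a Shadow element differs from the E14 element of the same coordinates, remains unstated: neither is given in the labels.

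The activities come from a massively parallel reporter assay in the somatosensory cortex of C57BL/6JRj (Haplotype H2b) mouse embryos, in which the RNA driven by each element is related to the amount of its reporter DNA in those cells. Plasmids were delivered by in utero electroporation on embryonic day (E) 12, 13, 14, 15 or 16 and the cells were fixed and sorted 24 h later, at E13, E14, E15, E16 or E17, as Pax6+ (NSC) or Tbr2+ (IPC) cells. All groups are listed for the same elements and the labels name no further treatment or genotype. They give 2 biological samples per cell type at E13, E16 and E17 and 3 at E14 and E15, DNA and RNA being sequenced from each. Endogenous expression of Eomes, Gadd45g or any marker was not part of the table used here, so the sorted identities were not checked against markers, and the reporter shows what an element does outside its own locus. How many embryos made up a sample is not given in the labels.

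The authors' table held, for every element, 1 pooled value in each of 10 columns (5 ages in either cell type), without the spread between biological samples and without read depth. The level in a column is therefore given as a fold, the authors' activity statistic divided by the median of the scrambled controls of the same column (976 to 993 controls), and set against the spread of those controls by percentiles. A fold of 1 is the typical scrambled sequence. The controls themselves were broadly spread. The fold that the top 2.5% of them exceeded, used below as the upper limit of a column, was 2.64 in NSC at E17, where it was lowest, and 13.3 in NSC at E13, where it was highest.

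The Eomes window lies on mm10 chromosome 9 from 118476184 to 118476449, 1.74 kb upstream of the Eomes start site and inside the span of the long non-coding RNA gene Gm33408. The next protein-coding gene, Golga4, lies 29.75 kb away. The Gadd45g window lies on chromosome 13 from 52113670 to 52113935, inside the span of the long non-coding RNA gene 4921525O09Rik. Gadd45g itself ends 265.2 kb away, and Sema4d (319.99 kb) and Diras2 (390.44 kb) are the next protein-coding genes, so the pairing with Gadd45g is by distance alone. Exons and introns were not used here. No other E14 or Shadow element lay within 500 kb of either window or had Eomes or Gadd45g as its nearest protein-coding gene.

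The bases of the elements were not used here. For orientation, the 250 bases before the start site of each gene are shown, from RefSeq (GRCm38.p6, the assembly behind mm10, plus strand, 5′ to 3′); they were not assayed as such. Capitals mark matches to the E-box CANNTG, the recognition sequence of basic helix-loop-helix factors.
Eomes promoter, chr9:118477939-118478188: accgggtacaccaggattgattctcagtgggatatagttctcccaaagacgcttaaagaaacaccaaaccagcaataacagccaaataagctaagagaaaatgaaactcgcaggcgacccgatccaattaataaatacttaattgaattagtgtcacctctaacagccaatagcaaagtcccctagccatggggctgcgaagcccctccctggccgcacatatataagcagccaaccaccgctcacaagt
Gadd45g promoter, chr13:51846425-51846674: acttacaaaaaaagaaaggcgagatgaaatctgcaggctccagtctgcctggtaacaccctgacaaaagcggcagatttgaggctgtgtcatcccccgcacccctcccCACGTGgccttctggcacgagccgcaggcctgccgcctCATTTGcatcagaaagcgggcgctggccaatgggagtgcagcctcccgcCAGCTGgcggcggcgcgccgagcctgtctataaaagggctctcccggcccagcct
The E-box letters occurred 3 times before Gadd45g, once as CAGCTG, and 0 times before Eomes, while 66.2% of 32851 promoter windows of this length held at least 1 and 13% held CAGCTG. The T-box letters GGTGTGA (3.33% of windows), GTGGGAA of RBPJ (5.42%), TAATTA of homeodomain factors (4.84%), ACAATG of SOX factors (10.7%), TTGGCA of NFI factors (12.3%) and the E-box CAGATG (14.4%) occurred in neither, on either strand. CAGATG and CAGCTG are contained in CANNTG. These matches are descriptions of letters and not of bound sites.

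The E14 element beside Eomes stood above the scrambled median in intermediate progenitors at the 3 younger ages and below it at the 2 older ages. Its fold in IPC was 1.68 on day E13, 2.17 on E14, 1.97 on E15, 0.669 on E16 and 0.704 on E17. The corresponding percentiles among the scrambled controls were 74.2, 93.2, 83.1, 33.4 and 30.8. None of these values passed the upper limit of its column, and the highest, at E14, had an adjusted p of 0.0557 against the controls in the authors' deposited table. That value lay at percentile 76.0 of the E14 class. In the same column 23.8% of the E14 class, 11.3% of non-scrambled elements and 6.66% of the scrambled controls had an adjusted p under 0.05.

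In neural stem cells the same element did not follow that order. Its fold was 0.896 on day E13, 0.485 on E14, 1.06 on E15, 0.627 on E16 and 1.42 on E17, so that it was lowest at the age at which it was highest in IPC. These values lay between percentiles 10.4 and 79.3 of the controls. On the scale log2(fold + 0.1), on which the typical control averages 0.19 in NSC and 0.23 in IPC, the element averaged -0.08 ± 0.55 in NSC and 0.48 ± 0.76 in IPC (SD over 5 ages). These means lay at percentiles 27.2 and 68.2 of the controls. Within its own class they lay at percentile 16.8 in NSC and 48.1 in IPC, so the typical E14-class element was at least as active.

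Activity of the Eomes E14 element was 0.56 ± 0.48 higher in IPC than in NSC on the log2 scale (SE over 5 ages), with IPC higher at 4 of 5 ages. The difference was 0.84 on day E13, 1.96 on E14, 0.84 on E15, 0.08 on E16 and -0.92 on E17. Permuting the cell type of the 10 columns in every possible way gave an exact two-sided p of 0.222 (Benjamini-Hochberg adjusted p = 0.883 over the 9886 non-scrambled elements with all 10 values). With ages as the observations the smallest p this test allows is 0.00794, and 6.52% of all non-scrambled elements had an unadjusted p under 0.05, whereas 0% had an adjusted one. With that smallest p over 9886 elements, an adjusted p under 0.05 would need very many elements at the smallest p. The 0% therefore does not show that no element differed between the cell types. The difference lay at percentile 80.7 of the scrambled controls, inside their limits of -1.39 and 1.25, which 3.01% and 5.15% of non-scrambled elements passed. Leaving out E17, the difference was 0.93 (exact permutation p = 0.0857) and without E14 it was 0.21.

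The split of ages into younger and older was chosen after the values were seen, as a description of the Eomes E14 element in IPC. Its mean log2 activity was 1.02 over E13 to E15 and -0.35 over E16 and E17, a difference of -1.37 that lay at percentile 6.13 of the scrambled controls and percentile 12.2 of the E14 class. All 3 younger ages stood above both older ones. The same order was seen in 10.9% of all non-scrambled elements and in 12.4% of the E14 class in IPC, so it was not rare. The slope over the 5 ages was -0.39 per day in IPC (percentile 11.1 of controls) and 0.15 per day in NSC (percentile 65.8), both within the limits of the controls. Without E17 the slope in NSC was -0.037, so its sign is not settled.

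The Shadow element of the Eomes window lay between percentiles 27.7 and 74.2 of the scrambled controls in every column. In NSC its fold was 0.944 on day E13, 1.01 on E14, 0.695 on E15, 0.698 on E16 and 1.10 on E17. In IPC it was 0.830 on day E13, 0.740 on E14, 1.29 on E15, 1.90 on E16 and 1.01 on E17. Its highest value, in IPC at E16, was at an age at which the E14 element of the window was below the controls' median. On the log2 scale the Shadow element averaged -0.04 in NSC and 0.25 in IPC, at percentiles 30.5 and 52.0 of the controls.

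The spread of the Eomes Shadow element over ages in NSC, an SD of 0.28 on the log2 scale, was at percentile 2.47 of the scrambled controls, whose median SD was 0.87. In IPC its SD was 0.50 (percentile 16.4). The Gadd45g E14 element in IPC was nearly as steady (SD 0.30, percentile 3.01). The share of all elements with so low a spread was not computed. IPC minus NSC of the Eomes Shadow element was 0.29 ± 0.33 (SE over 5 ages, exact permutation p = 0.294). IPC was higher at 2 of 5 ages, and without E16 the difference was 0.03.

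The 2 elements of the Eomes window were not told apart over the 10 columns. E14 minus Shadow was 0.09 ± 0.27 on the log2 scale (SE over columns), with the E14 element higher in 5 of 10 columns (exact sign flips, two-sided p = 0.762; adjusted p = 0.889 over 759 complete pairs; the smallest p that 10 columns allow is 0.00195). Its sign turned without E13 (-0.00054) and without E15 (-0.032). The difference in IPC was 0.94 at E13, 1.44 at E14 and 0.58 at E15 in favour of the E14 element, and -1.38 at E16 and -0.47 at E17. In NSC it ranged from -0.92 at E14 to 0.55 at E15. Over all complete pairs of E14 and Shadow elements the median difference was 0.28, and the Eomes pair lay at percentile 39.1. Pairs with an unadjusted p under 0.05 and the E14 element higher made up 16.9% of all pairs, and those with the Shadow element higher 1.98%. Sign flips treat the 10 columns as independent, although the labels do not say whether NSC and IPC of one age came from the same embryos.

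The E14 element assigned to Gadd45g was below the scrambled median in 9 of 10 columns. Its fold in IPC was 0.543 on day E13, 0.448 on E14, 0.744 on E15, 0.796 on E16 and 0.525 on E17. In NSC it was 0.320 on day E13, 0.824 on E14, 0.696 on E15, 0.349 on E16 and 1.82 on E17. It was thus above the controls' median in NSC at E17 alone, at their percentile 89.9 there. On the log2 scale it averaged -0.38 ± 0.89 in NSC and -0.52 ± 0.30 in IPC (SD over 5 ages), at percentiles 10.2 and 6.02 of the controls and percentiles 6.39 and 4.27 of its own class.

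Neither mean was under the lower 2.5% limit of the scrambled controls, which was -0.75 in NSC and -0.77 in IPC, so the low activity lay within the spread of the controls. IPC minus NSC was -0.14 ± 0.47 (SE over 5 ages), and 3 of the 5 ages had the higher value in IPC (p = 0.770 by exact permutation; adjusted p = 0.987 over all elements). The direction is not settled: without E17 the difference was 0.24, and without E14 it was 0.02.

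The Shadow element of the Gadd45g window gave the 1 high value of the 4 elements. In NSC its fold was 0.255 on day E13, 0.893 on E14, 0.414 on E15, 1.20 on E16 and 4.63 on E17. In IPC it was 0.363 on day E13, 1.43 on E14, 0.655 on E15, 0.226 on E16 and 0.468 on E17. The element was therefore below the controls' median in 7 of 10 columns and well above it in 1. On the log2 scale it averaged 0.03 ± 1.44 in NSC and -0.67 ± 0.84 in IPC (SD over 5 ages). These means lay at percentiles 36.5 and 3.53 of the controls and percentiles 34.4 and 3.44 of its own class. Its IPC mean was thus lower than that of the Gadd45g E14 element (-0.52).

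The NSC value at E17 exceeded all but 3 of 991 scrambled controls (percentile 99.7) and 98.6% of the Shadow class. In the authors' deposited table it had an adjusted p of 1.83e-15, the only one of the 40 values of the 4 elements under 0.05. In that column 13% of non-scrambled elements, 20% of E14 elements, 10.8% of Shadow elements and 6.16% of the scrambled controls themselves were called, and over the 10 columns the share of non-scrambled elements ranged from 11.3% to 19.6%. Over the values of all columns 15.5% were called and 4.72% passed the upper limit of their column, and the 4 elements, with 1 of 40 on either count, did not stand above that background. NSC at E17 was also the column with the highest scrambled median of the statistic (2.37, against 0.164 to 1.59 elsewhere). The E14 elements of both windows had their highest NSC value in this column too, and so did the Eomes Shadow element. The part of the column in these values was not tested.

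The slope of the Gadd45g Shadow element over the ages exceeded the upper limit of the controls in NSC and lay within their limits in IPC; the difference between the cell types was not tested. In NSC its slope was 0.79 per day, at percentile 99.1 of the scrambled controls, whose upper limit was 0.66; 3.33% of all non-scrambled elements exceeded this limit. In IPC the slope was -0.16 per day (percentile 29.8), whereas E17 minus E13 was 0.30 (percentile 61.6), against 3.73 in NSC, so no direction is settled in IPC. Without E17 the slope in NSC was 0.46, lower than that limit, but the limit belongs to slopes over all 5 ages. No limit of the controls was computed for slopes without E17, so how far the high slope rests on that age was not tested. IPC minus NSC was -0.70 ± 0.76 (SE over 5 ages), with IPC higher at E13, E14 and E15 and differences of -1.99 and -3.06 at E16 and E17 (exact permutation p = 0.389). Without E17 it was -0.11.

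E14 minus Shadow for the Gadd45g window was -0.13 ± 0.31 (SE over 10 columns), with the E14 element higher in 6 of 10 columns (exact sign flips, p = 0.672; adjusted p = 0.860 over 759 complete pairs). The difference lay at percentile 27.3 of all pairs, and without E14 it was 0.035. At E16 the sign was opposite in the cell types, with -1.53 in NSC and 1.46 in IPC. An interval of about 2 SE around either pair's difference takes in the median of all pairs.

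Set against each other, the Eomes E14 element was more active than the Gadd45g E14 element in 7 of 10 columns. The difference was 0.65 ± 0.28 on the log2 scale (SE over columns). Exact sign flips gave p = 0.0469 (Benjamini-Hochberg adjusted p = 0.141 over the 3 paired comparisons), and it failed the correction. Unlike the E14 minus Shadow differences, it was not set against a background of other pairs. How often other pairs of E14 elements reach such a p was not computed. The difference was larger in IPC (0.99, higher at 4 of 5 ages) than in NSC (0.30, higher at 3 of 5). This change between cell types was not tested. The largest single difference was in IPC at E14, 2.05, where the folds were 2.17 and 0.448.

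A list of genes of the intermediate progenitor and neurogenic programme, which includes Eomes and Gadd45g themselves, gave a point of reference. Of its 28 genes, 8 were the nearest protein-coding gene of an E14 element, with 9 elements in all. The Eomes and Gadd45g E14 elements are among the 9, so the counts and medians below include them. In IPC 5 of these 9 exceeded the limit that 2.5% of the scrambled controls exceed for the mean over ages, against 21.3% of the E14 class, and in NSC 0 of 9 did, against 10.6%. The median of the 9 was 1.38 in IPC and 0.25 in NSC, against 0.51 and 0.45 for the class. Counting only elements within 100 kb of the gene, 3 of 6 exceeded the limit in IPC. The Gadd45g element was the lowest of the 9 and the Eomes element the second lowest, in both cell types.

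The elements beyond the limit in IPC were those assigned to Sox11 (2.65 at 326.91 kb and 2.33 at 495.77 kb), a SOX factor of newborn neurons, Nhlh1 (2.16) and Nhlh2 (1.86), basic helix-loop-helix factors of differentiating neurons, and Mfng (1.38), a glycosyltransferase that modifies Notch receptors. The elements assigned to Cdkn1c, a cell cycle inhibitor (1.01), and Mgat5b (0.84) lay between these and the Eomes element (0.48). For IPC minus NSC, 3 of 9 exceeded the upper limit of 1.25, against 12% of the class, and neither the Eomes nor the Gadd45g element was among them; within 100 kb of the gene it was 1 of 6. The opposite limit, for higher activity in NSC, was passed by 0 of 9, against 4.84% of the class. The neural stem cell genes had 20 elements at 12 genes. Of these 20 elements, 3 lay beyond the IPC limit, 2 beyond the NSC limit and 1 beyond that for IPC minus NSC. The class shares were 21.3%, 10.6% and 12%, so on these counts and limits the list did not stand above its class. The medians of the 20 elements were 0.52 in IPC and 0.53 in NSC, against 0.51 and 0.45 for the class. No E14 element was assigned to the related genes Gadd45a, Gadd45b, Tbr1, Tbx21, Tbx2 or Tbx3. The lists were written with results of these data known, and these counts are no test.

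The E14 elements whose pattern over the 10 columns was most like that of the Eomes element were assigned to Sox11 (495.77 kb; Pearson's r = 0.79 over 10 columns), Cyria (within the gene; r = 0.79) and Prmt6 (8.71 kb; r = 0.79), out of 888 elements. All 3 had a higher IPC mean, from 1.96 to 2.43. For the Gadd45g element they were assigned to Cyria (41.08 kb; r = 0.91), Fgfr1 (within the gene; r = 0.83) and Ptgfrn (within the gene; r = 0.74). These are the highest of many correlations over few columns, which share libraries and controls, and are given as a description only.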

How the data were processed

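Reporter DNA and RNA of 24 biological samples (48 libraries) were measured. Per the submitters' processing notes, cutadapt and the build mm10 were used; aligner, barcode counting and activity tool were not given in the sources used here. In their table the authors deposited 1 activity score, named statistic, per element, cell type and age, pooled over 2 or 3 biological samples, with a MAD score and a p-value. From the deposited values, the MAD score was checked to be the statistic minus the scrambled median over 1.4826 times the scrambled median absolute deviation, and the p-value its upper-tail normal p after Benjamini-Hochberg adjustment within the column.

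Groups are cell type by collection age, from the labels. Folds are the statistic over the column's scrambled median, and log2(fold + 0.1) was taken, which understates differences of low values. Elements lacking a value in a column (98 to 454) were left out of measures that need it; the 4 elements had all 10. Tests were exact permutations of the 10 columns and exact sign flips within columns, checked on simulated data. They were run over all elements or all complete pairs, except that Eomes E14 minus Gadd45g E14 was run for these elements alone. Ages stand in for replicates, so p-values do not cover the spread between animals of one age. The plan to adjust the IPC minus NSC test over the 4 elements alone was replaced by adjustment over all elements in the main test. The alternatives kept adjustment over the 4 elements, or over the 3 paired comparisons. Depth is unknown. Motifs could be searched only in the promoter table (250 bases before each start). Nearest genes come from protein-coding spans of GRCm38.p6. Named genes are the 4 elements, elements within 500 kb or with the same nearest gene, the 3 most alike E14 elements, and list elements beyond a limit. Cdkn1c and Mgat5b were added after their values were seen. Of the stem cell list only counts and medians are given. The elements and lists were chosen with earlier results of these data known. Alternatives were other pseudocounts, scalings, limits and distances, the MAD score, pairing by age and leaving out each age. Python 3.11.15, numpy 2.4.6, pandas 2.3.3 and scipy 1.17.1 were used.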

Additional observations from a re-analysis of the deposited data

How the results depend on the processing

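No IPC minus NSC or paired difference of the 4 elements had an adjusted p under 0.05 under any alternative tried. The adjustment was over the 4 elements or the 3 paired comparisons alone. Alternatives with 5 ages as the observations could not have passed, since their smallest p is 0.0625. With 1 age left out, the IPC minus NSC permutation had fewer splits and a larger smallest p than with all ages. After adjustment over the 4 elements, a single element at that smallest p would not have passed. The lack of a pass with an age left out is therefore little evidence on how robust the main result is. With 2 exceptions by age left out for the Gadd45g E14 element (0.02 without E14, 0.24 without E17) the IPC minus NSC differences kept their sign. Leaving out 1 age gave 0.21 to 0.93 for Eomes E14, 0.03 to 0.46 for Eomes Shadow, -0.42 to 0.24 for Gadd45g E14 and -1.03 to -0.11 for Gadd45g Shadow. E14 minus Shadow ranged from -0.032 (without E15) to 0.30 at Eomes, with -0.00054 without E13, and from -0.26 to 0.035 (without E14) at Gadd45g. Eomes E14 minus Gadd45g E14 ranged from 0.47 to 0.80, with unadjusted exact sign-flip p from 0.0469 to 0.1875. With NSC and IPC averaged at each age its sign-flip p was 0.0625, the smallest that 5 ages allow. The IPC slope of Gadd45g Shadow ranged from -0.55 (without E13) to -0.0044 per day, and the NSC slope of Eomes E14 from -0.037 (without E17) to 0.35. Within 100 kb of the gene, 3 of 6 progenitor-list elements exceeded the IPC limit, against 21.3% of the E14 class at any distance. The limit for IPC minus NSC was exceeded by 1 of 6 of them and by 0 of 16 stem cell elements, against 12% of the class at any distance. Class shares within 100 kb were not computed. With limits at the 95th percentile of the controls, 1 of 9 progenitor-list and 4 of 20 stem cell elements exceeded the NSC limit, against 16.7% of the E14 class. At that percentile 4 of 9 and 2 of 20 exceeded the limit for IPC minus NSC, against 15.7%, and 0 of 9 and 1 of 20 that for NSC minus IPC, against 8.32%. Which age or distance mattered was not tested further. Pairing the cell types by age left every IPC minus NSC difference as it was and gave exact sign-flip p-values of 0.4375 for Eomes E14, 0.5 for Eomes Shadow, 0.8125 for Gadd45g E14 and 0.5 for Gadd45g Shadow; the smallest p that 5 ages allow is 0.0625. By replicate number, no paired analysis was possible because the table holds 1 pooled value per cell type and age, without values per replicate number.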
